A study of Mus musculus with 12 samples.

Results

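The CC chemokines described here were *Ccl2*, *Ccl3*, *Ccl4*, *Ccl5*, *Ccl6*, *Ccl7*, *Ccl8*, *Ccl9*, *Ccl11* and *Ccl12*, 10 of the 18996 genes in a bulk RNA sequencing count table of mouse tissue from beside the spine. They were chosen by gene symbol, and all 10 were present and passed the filter on low counts. Expression was measured in 12 mice, 4 each in the No operation, SHAM and Laminectomy groups. The methods give BALB/c mice aged 5 to 7 weeks. No operation mice gave paraspinal soft tissue without surgery. SHAM mice had paraspinal soft tissue removed with the laminae left in place, and Laminectomy mice also lost the laminae, which opened the spinal canal. The samples from both surgical groups were labelled as soft tissue together with scar and were taken on day 7, so an operated sample differs from a No operation sample in tissue make-up as well as in surgery.

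CC chemokines are small secreted proteins that bind to receptors on leukocytes and draw these cells into tissue. Ligands of Ccr2 call monocytes out of the blood, ligands of Ccr1 act on monocytes, macrophages and lymphocytes, and the eotaxins act through Ccr3 on eosinophils and mast cells. In a healing wound they are made by macrophages, fibroblasts and endothelial cells, and decoy receptors such as Ackr2 take them up and degrade them.

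All 10 genes lie on chromosome 11 of the build GRCm38, in a pair of blocks that share no member. The first block held *Ccl2*, *Ccl7*, *Ccl11*, *Ccl12* and *Ccl8*, in this order, over 81.2 kb from 82035571 to 82116799. The second held *Ccl5*, *Ccl9*, *Ccl6*, *Ccl3* and *Ccl4* over 139 kb from 83525778 to 83664683. A stretch of 1409 kb separated the blocks. No exon of a member overlapped an exon of another annotated gene. The coding sequences were related but distinct, with the highest identity of any pair, 68.1%, between *Ccl3* and *Ccl4*. For each member only the longest coding transcript was searched for shared stretches. No stretch of 100 bases in it also occurred in a transcript of another gene. At 50 bases, 59 of the 2957 stretches of *Ccl9* also occurred in transcripts of other genes, and none did for the other 9 members. How reads from these stretches were assigned was not tested.

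Promoter sequences show how the start sites of these neighbouring genes differ in their letters. RefSeq sequence of GRCm38.p6 was at hand for 5 of the 10 members, *Ccl3*, *Ccl6*, *Ccl8*, *Ccl9* and *Ccl12*. The last 120 bases before each start are given 5′ to 3′ on the strand of the gene, with capitals marking matches to the motifs searched.
Ccl12, chr11:82101725-82101844, plus strand: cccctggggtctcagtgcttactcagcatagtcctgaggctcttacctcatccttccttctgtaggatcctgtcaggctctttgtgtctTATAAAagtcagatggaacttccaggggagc
Ccl8, chr11:82115065-82115184, plus strand: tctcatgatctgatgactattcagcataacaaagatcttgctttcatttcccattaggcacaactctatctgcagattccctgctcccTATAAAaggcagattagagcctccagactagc
Ccl9, chr11:83578637-83578756, minus strand: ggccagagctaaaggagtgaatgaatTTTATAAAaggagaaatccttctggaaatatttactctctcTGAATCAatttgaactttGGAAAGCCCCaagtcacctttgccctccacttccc
Ccl6, chr11:83593088-83593207, minus strand: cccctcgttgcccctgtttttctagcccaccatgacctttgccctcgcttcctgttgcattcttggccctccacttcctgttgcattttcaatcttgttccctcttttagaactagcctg
Ccl3, chr11:83649379-83649498, minus strand: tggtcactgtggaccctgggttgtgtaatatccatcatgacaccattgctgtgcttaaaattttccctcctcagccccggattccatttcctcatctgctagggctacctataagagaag

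The capitals in the *Ccl12* and *Ccl8* promoters are a TATA box, TATAAA, at -31 to -26 and at -32 to -27 from the start. In *Ccl9*, TATAAA lay farther away, at -92 to -87, and overlapped a match on the other strand. TATAAA was found on either strand within 250 bases of the start in 3 of the 5 members and in 12.4% of the 32851 promoters in the table. *Ccl9* also held the AP-1 letters TGANTCA at -53 to -47 and, at -35 to -26 on the opposite strand, a match to the NF-kB motif, which is bound by the main inflammatory transcription factor. These letters were present in 6.75% and 7.25% of all promoters. TTCNNNGAA, TTCNNNNGAA and TTGCNNAA, the letters searched for STAT factors, STAT6 and C/EBP, matched in none of the 5 windows and in 7.02%, 5.85% and 9.56% of all promoters. A match describes letters and is not evidence that a factor was bound.

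Total counts ranged from 16803002 to 18077873 per mouse, and the 10 members took 2199 to 8232 counts in No operation mice, 17408 to 40325 in SHAM mice and 9506 to 19035 in Laminectomy mice. Levels are given as CPM, the counts of a gene per 1000000 counts of a mouse after TMM scaling of the library size, in the order of mice 1 to 4 where all 4 are listed. A gene was called higher or lower when its Benjamini-Hochberg adjusted p in edgeR's quasi-likelihood test over all 14765 genes tested was below 0.05 and its log2 fold change exceeded 0.5 in size. Skeletal muscle markers fell in both operated groups (6 of 6 markers in each), from a summed 71847 to 101729 CPM in No operation mice to 1829 to 7234 CPM in SHAM and 2525 to 10258 CPM in Laminectomy mice, *Myh4* by 4.22, *Ckm* by 3.85 and *Tnnt3* by 3.46 on the log2 scale in the latter (adjusted p = 0.000155, 0.000211 and 0.000226, edgeR). In these bulk samples, more cells of a type and more RNA per cell cannot be told apart.

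No operation 1 stood apart from the other unoperated mice. Its 10 chemokines summed to 567 CPM, against 151 to 167 CPM in the other 3, and its 8 macrophage markers summed to 1110 CPM, against 496 to 673 CPM. Among the SHAM mice, SHAM 1 was the highest, at 2264 CPM for the chemokines and 3674 CPM for the macrophage markers. Fold changes of the members, and their levels and shares in unoperated tissue, are therefore also given without No operation 1 where it moved them by more than 1.5 times.

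After surgery without lamina excision, 9 of the 10 CC chemokines rose and none fell, where 25.7% of all genes tested were called higher and 25.1% lower. After laminectomy, 7 rose and *Ccl11* fell, where 24.2% of all genes were called higher and 24.4% lower. *Ccl6* and *Ccl8* were not called in that comparison with all mice, and both were called without No operation 1 or without a scaling factor. The median log2 fold change of the 10 genes was 3.43 in SHAM and 2.37 in Laminectomy mice, beside -0.00 and 0.01 over all genes tested. Without No operation 1 the medians of the 10 genes were 4.94 and 3.52, beside 0.00 and 0.02 over all genes. Both comparisons use the same No operation mice, so they are not independent of each other.

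**Figure D1:**
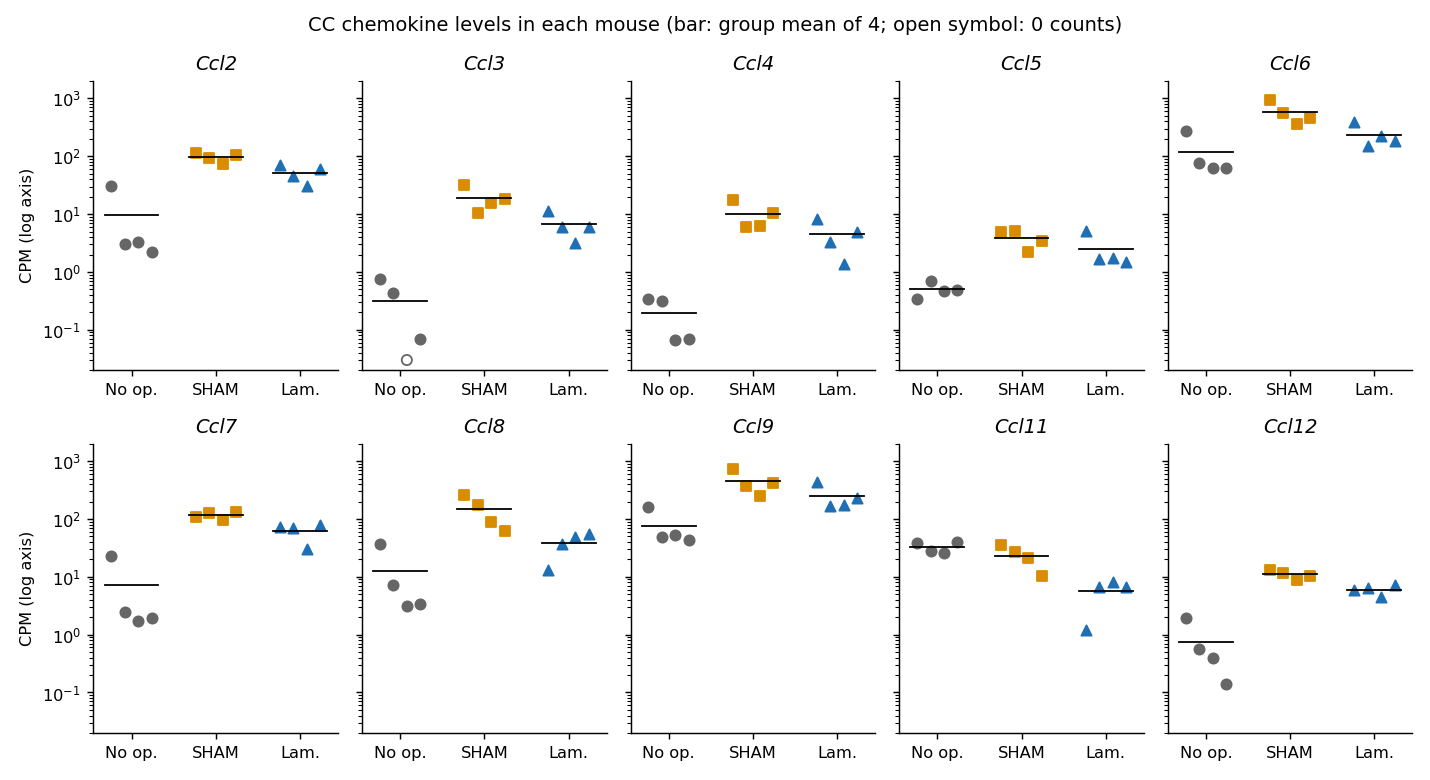
CPM of each of the 10 CC chemokines on a log axis, with a point for every mouse of the No operation (No op.), SHAM and Laminectomy (Lam.) groups, a bar for the group mean, and an open symbol for the No operation mouse without a *Ccl3* count. *Ccl3* and *Ccl4* start below 1 CPM and show the widest steps, *Ccl11* is the only gene whose Laminectomy mice lie below all No operation mice, and No operation 1 is the highest of its group for every member but *Ccl5* and *Ccl11*.

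The Ccr2 ligands of the first block, *Ccl2*, *Ccl7* and *Ccl12*, rose in both operated groups. *Ccl2* (identifier 20296, 82035571 to 82037453, plus strand) encodes the monocyte chemoattractant MCP-1. In CPM, the No operation group measured 30.2, 3.08, 3.33 and 2.24, the SHAM group 113, 93.9, 73.2 and 106, and the Laminectomy group 70.6, 44.9, 30.1 and 60.8. No operation 1 was the only unoperated mouse to reach the operated range, where it matched the lowest Laminectomy mouse. The log2 fold change of *Ccl2* reached 3.31 in the SHAM group (standard error 0.737, adjusted p = 0.00228, edgeR) and 2.41 in the Laminectomy group (standard error 0.715, adjusted p = 0.0125). Without No operation 1 these values were 5.06 and 4.16.

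*Ccl7* (identifier 20306, 82045712 to 82047525, plus strand), which encodes MCP-3, a further ligand of Ccr2, followed *Ccl2* closely. The 4 unoperated mice lay at 22.9, 2.45, 1.73 and 1.96 CPM, those of the SHAM group at 108, 128, 96.8 and 130, and those of the Laminectomy group at 72.1, 68.6, 30.8 and 79.7. No operated mouse fell into the unoperated range, and the SHAM mice were all above the Laminectomy mice. *Ccl7* rose by 4.00 on the log2 scale in SHAM mice (standard error 0.765, adjusted p = 0.000859, edgeR) and by 3.12 in Laminectomy mice (standard error 0.740, adjusted p = 0.00362), or by 5.81 and 4.93 without No operation 1.

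*Ccl12* (identifier 20293, 82101845 to 82103400, plus strand), the gene of MCP-5, whose promoter above carries a TATA box, was less abundant per kb than *Ccl2* and *Ccl7* in every group. Unoperated mice had 1.93, 0.567, 0.400 and 0.140 CPM, the SHAM group 13.3, 11.7, 8.89 and 10.4, and the Laminectomy group 5.98, 6.36, 4.55 and 7.19. The 3 groups did not overlap, with SHAM highest and No operation lowest. The log2 fold changes were 3.86 (standard error 0.529, adjusted p = 8.83e-05, edgeR) for SHAM and 2.98 (standard error 0.519, adjusted p = 0.000525) for Laminectomy, and 4.87 and 3.99 without No operation 1. The counts behind the No operation values ran from 2 to 28, which limits their precision.

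*Ccl8* (identifier 20307, 82115185 to 82116799, plus strand) encodes MCP-2, which in mice binds Ccr8. In CPM, the No operation group measured 36.9, 7.18, 3.13 and 3.36, the SHAM group 262, 175, 88.2 and 63.1, and the Laminectomy group 13.1, 36.6, 48.3 and 54.5. Every SHAM mouse was above every mouse of the other groups, while Laminectomy 1 and 2 lay below No operation 1. *Ccl8* rose by 3.54 in SHAM mice on the log2 scale (standard error 0.832, adjusted p = 0.00319, edgeR), and by 5.01 without No operation 1. In Laminectomy mice the log2 fold change was 1.60 (standard error 0.781, adjusted p = 0.0978), short of the threshold, and without No operation 1 it was 3.06 (adjusted p = 0.00229) and was called. Its receptor *Ccr8* had at most 4 counts in any mouse and was not tested.

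*Ccl11* (identifier 20292, 82057823 to 82062955, plus strand) encodes eotaxin, the Ccr3 ligand that attracts eosinophils, and it went against the other members. The 4 unoperated mice lay at 38.6, 27.6, 26.3 and 39.8 CPM, those of the SHAM group at 35.2, 26.5, 21.0 and 10.5, and those of the Laminectomy group at 1.22, 6.57, 8.02 and 6.67. SHAM and No operation mice overlapped, and all Laminectomy mice lay below both other groups. *Ccl11* fell by 2.55 on the log2 scale in Laminectomy mice (standard error 0.488, adjusted p = 0.000947, edgeR), to 0.170 of the No operation level. In SHAM mice its log2 fold change was -0.51, with a 95% interval from -1.50 to 0.49 (adjusted p = 0.348). Under all alternatives the Laminectomy value stayed between -2.77 and -2.21.

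The second block held the inflammatory proteins *Ccl3* and *Ccl4*, whose fold changes were larger than those of the other members in both operated groups with all mice fitted. *Ccl3* (identifier 20302, 83647844 to 83649355, minus strand), the gene of MIP-1α, a ligand of Ccr1, had levels of 0.758, 0.441, 0 and 0.0701 CPM without surgery. The SHAM group had 31.8, 10.5, 15.6 and 18.2 CPM, and the Laminectomy group 11.3, 6.06, 3.16 and 6.10. The operated mice all lay above the unoperated ones, which had between 0 and 11 counts, where 0 counts allow up to 0.200 CPM (3 counts), and the 2 operated groups overlapped. *Ccl3* rose by 5.87 on the log2 scale in SHAM mice (standard error 0.727, adjusted p = 4.67e-05, edgeR) and by 4.36 in Laminectomy mice (standard error 0.712, adjusted p = 0.000345). Without No operation 1 these values were 6.70 and 5.19.

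*Ccl4* (identifier 20303, 83662584 to 83664683, plus strand), the gene of MIP-1β, lies beside *Ccl3* on the opposite strand. Unoperated mice had 0.344, 0.315, 0.0666 and 0.0701 CPM, the SHAM group 17.3, 5.88, 6.30 and 10.4, and the Laminectomy group 8.31, 3.34, 1.40 and 4.95. Its pattern was that of *Ccl3*, with no overlap between operated and unoperated mice, SHAM 1 highest, and only 1 to 5 counts in a No operation mouse. *Ccl4* rose by 5.59 in SHAM mice (standard error 0.710, adjusted p = 5.43e-05, edgeR) and by 4.44 in Laminectomy mice (standard error 0.702, adjusted p = 0.000276) on the log2 scale. Without No operation 1 its Laminectomy value was 4.81, below the 4.93 of *Ccl7*.

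*Ccl5* (identifier 20304, 83525778 to 83530518, minus strand), known as RANTES and made largely by T and NK cells, stayed at a few CPM. In CPM, the No operation group measured 0.344, 0.692, 0.466 and 0.491, the SHAM group 4.89, 5.03, 2.17 and 3.36, and the Laminectomy group 5.19, 1.69, 1.76 and 1.46. No operated mouse reached down to the unoperated range, and Laminectomy 1 lay well above the other 3 of its group. *Ccl5* rose by 2.93 on the log2 scale in SHAM mice (standard error 0.487, adjusted p = 0.000335, edgeR) and by 2.32 in Laminectomy mice (standard error 0.484, adjusted p = 0.00166). Without Laminectomy 1 the latter value was 1.70, still called (adjusted p = 0.00248).

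*Ccl6* (identifier 20305, 83587882 to 83593087, minus strand) encodes C10, a Ccr1 ligand of myeloid cells found in rodents. The 4 unoperated mice lay at 276, 75.7, 62.1 and 62.1 CPM, those of the SHAM group at 938, 570, 358 and 461, and those of the Laminectomy group at 387, 148, 221 and 182. SHAM mice were all above No operation mice, whereas No operation 1 exceeded 3 of the 4 Laminectomy mice. *Ccl6* rose by 2.29 in SHAM mice on the log2 scale (standard error 0.540, adjusted p = 0.00329, edgeR), and by 3.13 without No operation 1. Its value in Laminectomy mice, 0.98 (standard error 0.521, adjusted p = 0.124), missed the threshold with all mice and was 1.82 (adjusted p = 0.00244) without No operation 1.

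*Ccl9* (identifier 20308, 83572919 to 83578636, minus strand), a further Ccr1 ligand of myeloid cells and the member with the AP-1 and NF-kB letters in its promoter, resembled *Ccl6*. Unoperated mice had 159, 49.2, 53.9 and 43.9 CPM, the SHAM group 741, 378, 251 and 420, and the Laminectomy group 432, 166, 177 and 230. Operated and unoperated mice did not overlap, but Laminectomy 2 was only just above No operation 1. *Ccl9* rose by 2.55 on the log2 scale in SHAM mice (standard error 0.505, adjusted p = 0.00107, edgeR) and by 1.72 in Laminectomy mice (standard error 0.490, adjusted p = 0.0102), or by 3.19 and 2.36 without No operation 1.

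**Figure D2:**
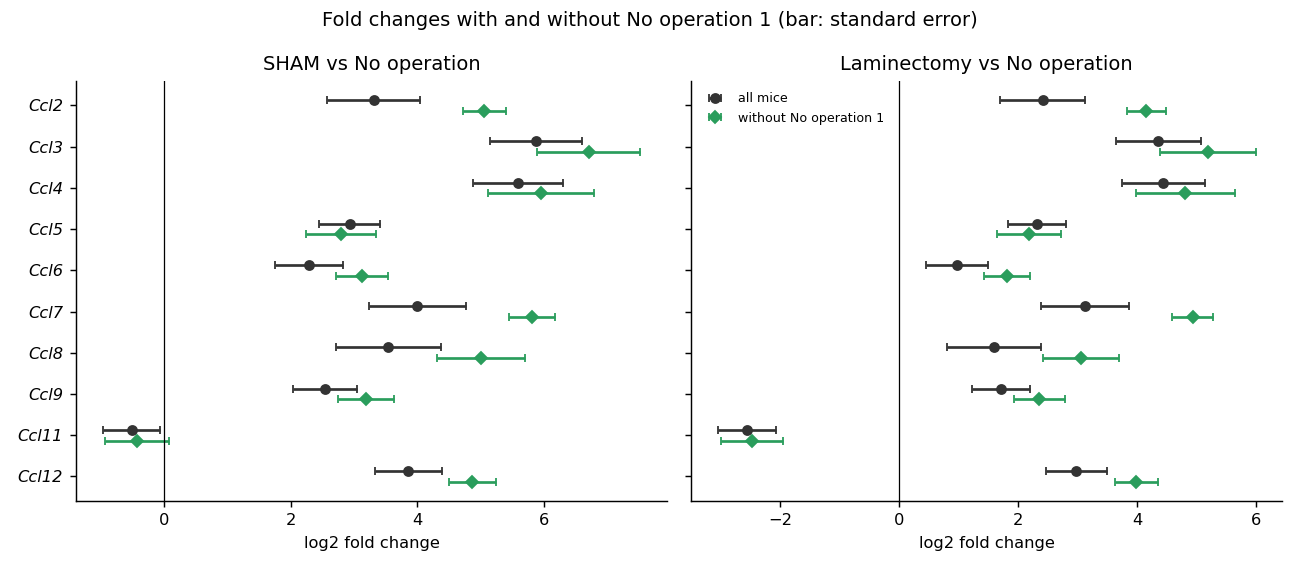
Log2 fold changes of the 10 CC chemokines against No operation in SHAM (left) and Laminectomy mice (right), with standard errors, fitted with all 12 mice (circles) and without No operation 1 (diamonds). *Ccl2* and *Ccl7* move most, *Ccl2* from 3.31 to 5.06 in SHAM mice, and *Ccl11* keeps its place in both panels.

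Counted by overlap, 9 members were higher in every SHAM mouse than in any No operation mouse and none was lower, where 26.7% and 27.8% of all genes tested were separated in these directions. In Laminectomy mice 6 members were higher in this way and 1, *Ccl11*, was lower, where 26.9% and 29.0% of all genes were. The members not separated were *Ccl2*, *Ccl6* and *Ccl8*, each because of No operation 1.

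Laminectomy and SHAM mice were then compared directly, which sets surgery with lamina excision beside soft tissue surgery alone. Their samples may also differ in tissue make-up, which this comparison cannot tell apart from opening the spinal canal. All 10 fitted values were lower in Laminectomy mice, from -0.61 for *Ccl5* to -2.05 for *Ccl11*, with a median of -1.02 beside 0.00 over all genes tested. Without Laminectomy 1 the value for *Ccl5* was -1.23 (adjusted p = 0.130, edgeR). None of these differences passed the threshold. The test called 0.0% of all genes in either direction, with 2360 genes at an unadjusted p below 0.05 and a smallest adjusted p of 0.0698. DESeq2 called 696 genes, among them 1 member, *Ccl11* (adjusted p = 0.00260). The edgeR value for *Ccl11* was -2.05 (standard error 0.480, unadjusted p = 0.00121, adjusted p = 0.112), with a 95% interval from -3.10 to -0.99. *Ccl8* followed at -1.95 (standard error 0.772, adjusted p = 0.248), with an interval from -3.64 to -0.26, and *Ccl3* at -1.52 (standard error 0.546, adjusted p = 0.210).

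With all mice, the 5 members of the first block, *Ccl2*, *Ccl7*, *Ccl8*, *Ccl11* and *Ccl12*, were each lower in every Laminectomy mouse than in any SHAM mouse, and the 5 members of the second block overlapped. Over all genes tested, 5.07% were separated in this direction and 5.04% in the other. Without Laminectomy 1 all 10 members were separated in this direction, as were 10.8% of all genes tested, so the blocks no longer differed in this count. Leaving out any other single SHAM or Laminectomy mouse gave 5 or 6 separated members beside 5.45% to 8.20% of all genes, with *Ccl3* added without SHAM 2 and *Ccl6* without SHAM 3. Median log2 differences were -0.90 in the first block and -1.15 in the second. The coefficient of variation among SHAM mice was 14.0% for *Ccl7*, 17.1% for *Ccl12*, 18.0% for *Ccl2*, 44.5% for *Ccl11* and 61.5% for *Ccl8* in the first block. In the second it ran from 35.1% for *Ccl5* to 53.1% for *Ccl4*, within the range of the first.

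**Figure D3:**
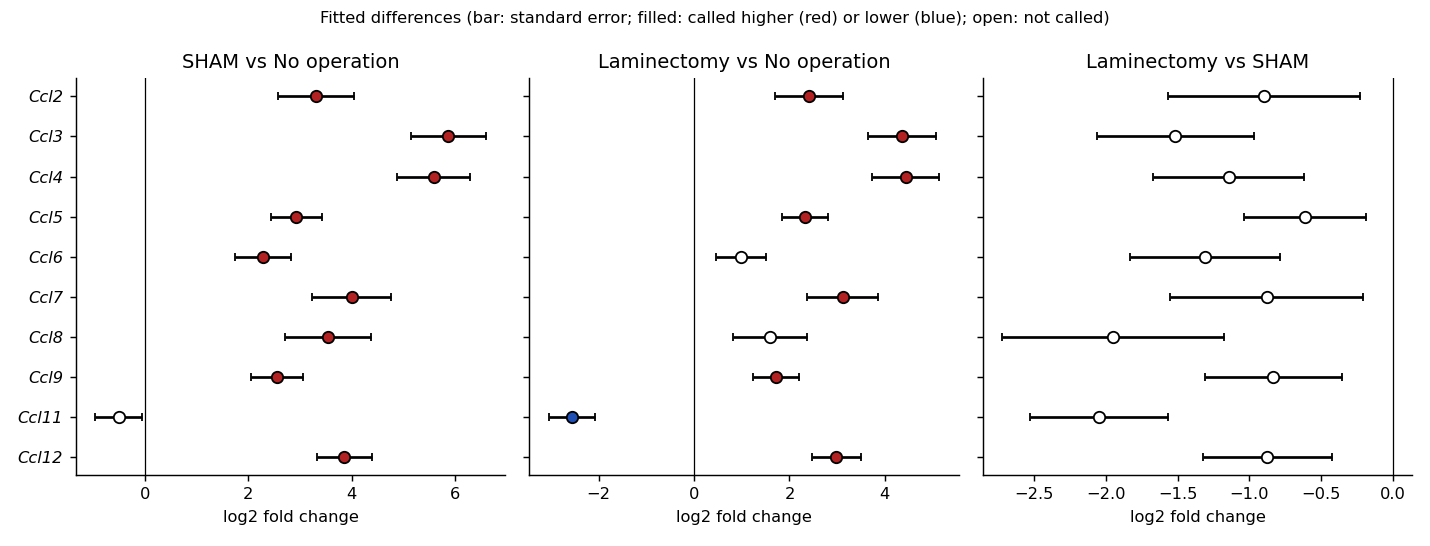
Fitted log2 fold changes with standard errors for the 10 CC chemokines in the 3 comparisons, filled in red where called higher, in blue where called lower and open where not called. All but *Ccl11* lie to the right of 0 against No operation, with *Ccl6* and *Ccl8* open in Laminectomy mice, and all 10 lie to the left of 0 between Laminectomy and SHAM, all open.

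Macrophage markers differed between the operated groups in the same direction as the chemokines. The 8 markers summed to 1681 to 3674 CPM in SHAM mice and to 1068 to 1415 CPM in Laminectomy mice, and none was called between these groups. Set against this sum, the 10 chemokines together came to 46.7 to 83.5 CPM per 100 CPM of macrophage markers in SHAM mice and to 41.3 to 71.2 in Laminectomy mice, ranges that overlap. In No operation mice the ratio was 51.1 in mouse 1 and 22.5 to 33.7 in the others. The part of macrophage content in the chemokine differences was not tested.

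Adjusted for exon length, the members differed widely in abundance. *Ccl6* led in every group, with mean levels of 66.3 CPM per kb in No operation, 324 in SHAM and 131 in Laminectomy mice. In unoperated tissue *Ccl11* came next at 30.6 CPM per kb, followed by *Ccl9* at 25.1 and *Ccl8* at 24.7, while *Ccl5*, *Ccl3* and *Ccl4* were all below 1 CPM per kb. No neighbours in this order were separated in all mice. No operation 1 carried part of these levels, and without it the means were 37.1 CPM per kb for *Ccl6*, 28.9 for *Ccl11*, 16.1 for *Ccl9* and 8.92 for *Ccl8*. *Ccl7* went from 9.06 to 2.56 CPM per kb, *Ccl2* from 8.55 to 2.54, *Ccl12* from 1.41 to 0.687 and *Ccl3* from 0.414 to 0.222. Among the other 3 mice the first 8 places were unchanged, *Ccl3* and *Ccl4* exchanged the last places, and *Ccl11* and *Ccl9*, *Ccl9* and *Ccl8*, *Ccl8* and *Ccl7*, *Ccl2* and *Ccl12*, and *Ccl5* and *Ccl4* did not overlap. In SHAM mice the order after *Ccl6* was *Ccl8* (288), *Ccl9* (147), *Ccl7* (144), *Ccl2* (84.7), *Ccl3* (24.8), *Ccl11* (21.5), *Ccl12* (20.6), *Ccl4* (15.1) and *Ccl5* (4.02), all in mean CPM per kb. Only *Ccl7* and *Ccl2*, *Ccl2* and *Ccl3*, and *Ccl4* and *Ccl5* did not overlap in their ranges among these neighbours. In Laminectomy mice *Ccl9* (82.5 CPM per kb), *Ccl7* (78.4), *Ccl8* (74.6) and *Ccl2* (45.4) followed *Ccl6*, and the only gap between neighbours was that from *Ccl2* to *Ccl12* at 11.2 CPM per kb.

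The make-up of the chemokine transcripts changed with *Ccl11*. Its share of the summed level per kb was 9.52% to 37.6% in No operation mice, 1.14% to 2.74% in SHAM mice and 0.194% to 2.03% in Laminectomy mice. The lowest unoperated share was that of No operation 1, and the mean of the other 3 mice was 29.6%. *Ccl11* went from the second place among the members in unoperated tissue to rank 7 in SHAM and rank 9 in Laminectomy mice. *Ccl7* made up 2.42% to 7.63% of the sum in No operation mice, 8.18% to 19.3% in SHAM and 10.5% to 23.4% in Laminectomy mice, and the unoperated range ended at 2.88% without No operation 1. *Ccl6* took 35.4% to 41.1%, 28.2% to 31.8% and 21.5% to 37.2% in these groups. It had the largest share in 8 of the 12 mice, but *Ccl11* exceeded it in No operation 4, *Ccl8* in SHAM 2 and Laminectomy 4, and *Ccl7* in Laminectomy 2. *Ccl8* ranged from 4.41% to 25.9% among Laminectomy mice, the lowest share being that of Laminectomy 1. Since these are parts of a sum, a larger share of some members lowers that of the others.

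**Figure D4:**
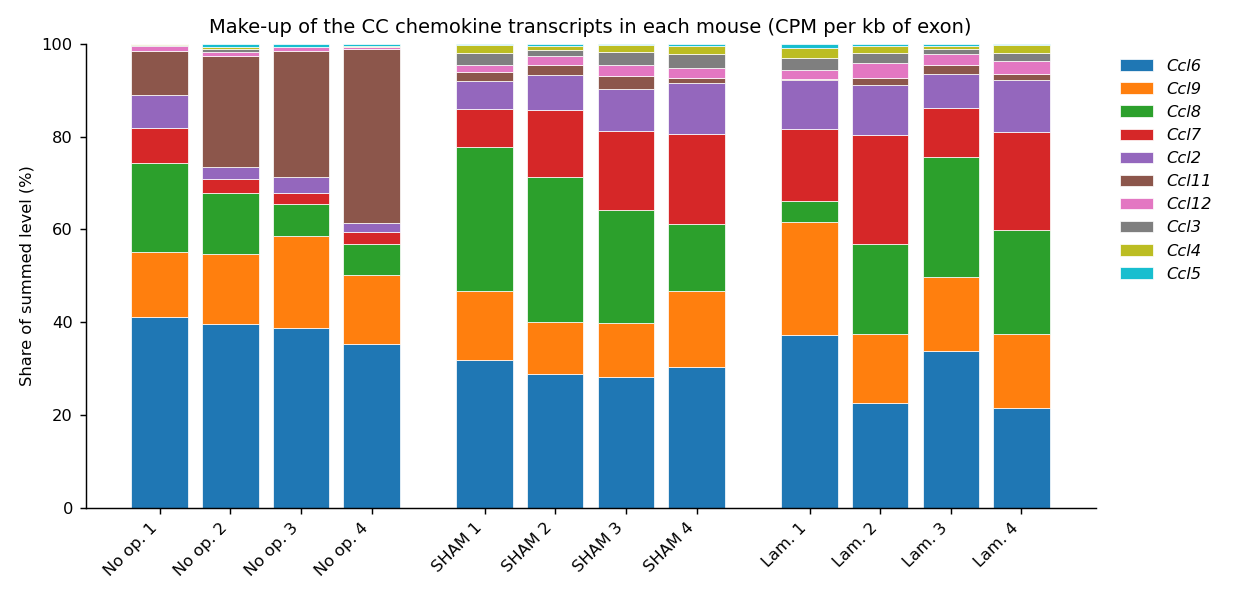
Share of each CC chemokine in the summed level of the 10 genes, in CPM per kb of exon, as a stacked bar for every mouse. The band of *Ccl11* shrinks from a mean of 24.6% in No operation mice to 2.02% in SHAM and 1.30% in Laminectomy mice, and *Ccl6* is the largest band in most mice.

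Within groups, members rose and fell together to different degrees. After each group's mean was removed, log2 CPM correlated over the 12 mice with r = 0.97 for *Ccl2* and *Ccl7*, 0.95 for *Ccl6* and *Ccl9*, 0.91 for *Ccl2* and *Ccl12* and 0.88 for *Ccl3* and *Ccl4*. Genes correlated in this way were read from the same libraries. Without No operation 1 and SHAM 1 the values were 0.79, 0.85, 0.62 and 0.88. The median over all 45 pairs was 0.60, and 0.39 without these mice. *Ccl11* had a median r of -0.10 against the other members and its highest value, 0.64, with *Ccl8*. Without No operation 1 and SHAM 1 these values were -0.68 and 0.81. The values of *Ccl5* with all mice ran from -0.55 with *Ccl11* to 0.45 with *Ccl4*. Without No operation 1 and SHAM 1, *Ccl8* was positive only with *Ccl11* and *Ccl12*, and its r with *Ccl9* went from 0.46 to -0.56. These are descriptions over few mice.

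Genes outside the family that varied most like a member over the 12 mice were listed in the same way. *Ccl9* was nearest to *Msr1*, a macrophage scavenger receptor (r = 0.99), and *Ccl6* to *Ctsb*, a lysosomal protease (0.98). *Ccl12* was nearest to *Mmp14*, a membrane matrix metalloproteinase (0.97), *Ccl2* to *Otulin*, a deubiquitinase (0.97), and *Ccl8* to *Il1rl2*, the receptor of interleukin 36 (0.96). *Ccl7* was nearest to *Socs3*, a feedback inhibitor of cytokine signalling (0.95), *Ccl4* to *Ralb*, a small GTPase (0.94), *Ccl5* to *Oas1c*, of an interferon-induced family (0.93), and *Ccl3* to *Pim1*, a kinase (0.93). *Ccl11* was nearest to *Pi16*, a gene of fibroblasts (0.96), then to *Mcpt4*, a mast cell protease (0.94), and *Scara5*, a ferritin receptor (0.92). The value for *Otulin* was 0.77 and that for *Socs3* 0.87 without No operation 1 and SHAM 1, and that for *Msr1* was 0.98.

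Among 11 CC receptor genes, 7 were tested, and 3 rose and 1 fell in SHAM mice, and 3 rose in Laminectomy mice. *Ccr1*, the receptor of *Ccl6* and *Ccl9*, rose by 2.93 in SHAM and 2.28 in Laminectomy mice on the log2 scale (adjusted p = 0.00252 and 0.00993, edgeR). *Ccr2*, which marks inflammatory monocytes, rose by 1.72 and 1.18 (adjusted p = 0.00184 and 0.0154, edgeR), from 16.3 to 67.5 CPM to 114 to 201 CPM in SHAM mice. *Ccr7*, the homing receptor of dendritic cells and T cells, was rare and rose by 2.47 and 2.27 (adjusted p = 0.00102 and 0.00188, edgeR), and *Ccr10*, a receptor of skin homing, fell by 1.00 in SHAM mice (adjusted p = 0.0461). *Ccr3*, the receptor of eotaxin, was at 0.140 to 4.28 CPM in No operation mice, 2.70 to 3.99 CPM in SHAM mice and 1.75 to 4.92 CPM in Laminectomy mice and was not called.

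Of the 4 atypical receptors, which bind chemokines without signalling for migration, 2 fell and 0 rose in each operated group. *Ackr2*, the scavenger of inflammatory CC chemokines, fell by 2.07 in SHAM and by 1.92 in Laminectomy mice on the log2 scale (adjusted p = 0.000400 and 0.000707, edgeR), from 5.73 to 14.3 CPM to 1.87 to 3.23 CPM and 1.43 to 3.83 CPM. *Ackr4*, the scavenger of *Ccl19* and *Ccl21* products, fell by 2.70 in SHAM mice (adjusted p = 0.000874), and *Ackr3*, a scavenger of Cxcl12, fell by 1.64 in Laminectomy mice (adjusted p = 0.00104). *Ackr4* shares exon bases with *Acad11* on the opposite strand. The fourth, *Ackr1*, was not called in either comparison.

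Of the other CC ligands, 12 were in the table and 9 were tested, and most of those called moved against the members described above. *Ccl22*, a product of dendritic cells and macrophages that binds Ccr4, rose by 2.32 and 1.78 on the log2 scale (adjusted p = 0.00383 and 0.0166, edgeR). In both operated groups, 5 ligands fell. *Ccl24*, the second eotaxin, fell by 0.79 in SHAM mice and by 2.16 in Laminectomy mice (adjusted p = 0.0490 and 0.000249, edgeR), from 3.21 to 7.15 CPM to 0.625 to 1.60 CPM in Laminectomy mice. *Ccl21a*, the lymphatic ligand of Ccr7, fell by 2.04 and 1.71 (adjusted p = 0.00220 and 0.00617, edgeR), and its near-identical copy *Ccl21c* by 1.47 and 1.27, though reads of these copies cannot be told apart with certainty. *Ccl25* fell by 1.49 and 1.22 and *Ccl27a* by 1.59 and 1.27, and each shares exon bases with a gene on the opposite strand, *Elavl1* and *Il11ra1*.

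Chemokines of other classes and known inducers of CC chemokines also rose. Of 13 CXC and other ligands tested, 10 rose in SHAM mice and none fell, and 9 rose and 1 fell in Laminectomy mice. *Cxcl5*, a neutrophil attractant, had the largest fold change among them, 5.31 in Laminectomy mice (adjusted p = 0.00198, edgeR), ahead of *Cxcl10*, an interferon-induced ligand (4.70, adjusted p = 0.000141), and *Cxcl2* (3.85, adjusted p = 0.00374). Of 14 inducers and regulators tested, 12 rose in SHAM and 8 in Laminectomy mice, and none fell. *Il6* rose by 5.41, *Il1b* by 3.77 and *Tnf* by 2.70 in Laminectomy mice (adjusted p = 0.000230, 0.00137 and 0.0113, edgeR). The type 2 cytokines *Il4* and *Il13*, known inducers of eotaxins, had at most 1 count in any mouse.

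Markers of the cells that make or answer these chemokines moved in both directions. Of 8 macrophage markers, 5 rose and 2 fell in SHAM mice, and 3 rose and 2 fell in Laminectomy mice. *Cd68*, *Adgre1* and *Csf1r* rose in both groups, *Cd68* by 2.92 and 2.61 on the log2 scale (adjusted p = 0.000117 and 0.000276, edgeR). *Mrc1* and *Folr2* were called higher in SHAM mice only, by 1.91 and 1.49 (adjusted p = 0.000849 and 0.000194, edgeR), and *Cd163* was called in neither group. *Timd4* and *Lyve1*, markers of resident macrophages, fell in both groups, *Timd4* by 2.83 and 3.55 (adjusted p = 0.000800 and 0.000273, edgeR). Of 5 monocyte markers, 2 rose in SHAM mice and 1, *Ccr2*, in Laminectomy mice. Of 6 neutrophil markers, 1 rose in SHAM mice and none was called in Laminectomy mice. Their sum ran from 14.5 to 1772 CPM among No operation mice, and No operation 1, with its high chemokine levels, had 63.2 CPM. Of 5 T and NK cell markers tested, 3 rose in SHAM mice, and 2 rose and 1 fell in Laminectomy mice, *Gzma* with a log2 fold change of 1.95, *Cd3g* of 1.38 and *Cd2* of -1.52 (adjusted p = 0.0248, 0.0214 and 0.00286, edgeR). No mouse exceeded a summed 15.2 CPM for the whole list of 7. Of 6 fibroblast markers, 4 rose and 1 fell in each operated group, with *Col3a1* at 2.17, *Col1a1* at 1.91 and *Dcn* at -1.73 in Laminectomy mice on the log2 scale (adjusted p = 0.00888, 0.00276 and 0.00163, edgeR). Of 3 endothelial markers, 1, *Kdr*, fell in each. The part of these cells in the chemokine changes was not tested.

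Mast cell markers moved with *Ccl11* in Laminectomy mice. Of 5 such markers, 4 fell there and none was called in SHAM mice. The fifth, *Kit*, the stem cell factor receptor of mast cells and other cells, had log2 fold changes of 0.52 in SHAM and 0.57 in Laminectomy mice and was not called. *Tpsb2*, *Mcpt4* and *Cma1*, proteases of mast cell granules, fell by 3.41, 3.39 and 3.15 on the log2 scale (adjusted p = 0.00218, 0.00284 and 0.00170, edgeR), and *Cpa3* by 2.87 (adjusted p = 0.00162). The summed list was at 49.9 to 91.4 CPM in No operation mice, 26.0 to 74.8 CPM in SHAM mice and 16.9 to 27.3 CPM in Laminectomy mice. *Kit* made up 16.0 to 18.5 CPM of the last range, and the 4 proteases without it summed to 38.8 to 82.1, 7.63 to 61.8 and 0.953 to 9.12 CPM in these groups, with SHAM 4 and Laminectomy 1 the lowest of their groups, as they were for *Ccl11*. The part of mast cells in the *Ccl11* difference was not tested. Markers of eosinophils, the cells that eotaxin attracts, were not called in either comparison (3 of 4 tested), and their sum ran from 0.280 to 86.0 CPM among No operation mice. Precursors of marrow granulocytes gave a list that varied in the same mice, from 19.8 to 2903 CPM in No operation mice. Its sum was 3.54 to 585 CPM in SHAM mice and 253 to 2000 CPM in Laminectomy mice, with none of its 5 genes called. Of 3 B cell markers, 1 fell in SHAM mice and none was called in Laminectomy mice.

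Finally, the genes around the blocks were read in the same fit. Of 32 protein-coding genes beside or between the members, 24 were tested. In SHAM mice 9 were called higher and 4 lower, where 25.7% and 25.1% of all genes tested were. In Laminectomy mice 8 were called higher and 4 lower, where 24.2% and 24.4% of all genes were. The median log2 fold changes of these 24 genes were 0.21 and 0.01, against 3.43 and 2.37 for the members, and 0.02 and -0.07 without No operation 1, against 4.94 and 3.52. Most of the genes called higher belonged to the Schlafen family, which lies between the blocks, with *Slfn9* up by 2.47 and 2.49 and *Slfn2* up by 2.31 and 1.76 (adjusted p = 3.94e-05, 4.85e-05, 8.97e-05 and 0.000592, edgeR). *Wfdc17*, beyond the second block, rose by 3.45 and 2.05 (adjusted p = 0.000201 and 0.00476, edgeR). *Unc45b*, a myosin chaperone of muscle, and *Mmp28*, a matrix metalloproteinase, fell, *Unc45b* by 2.43 and 2.09 and *Mmp28* by 1.60 and 1.75. *Ccl11* therefore fell in Laminectomy mice between *Ccl7* and *Ccl12*, which both rose.

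**Figure D5:**
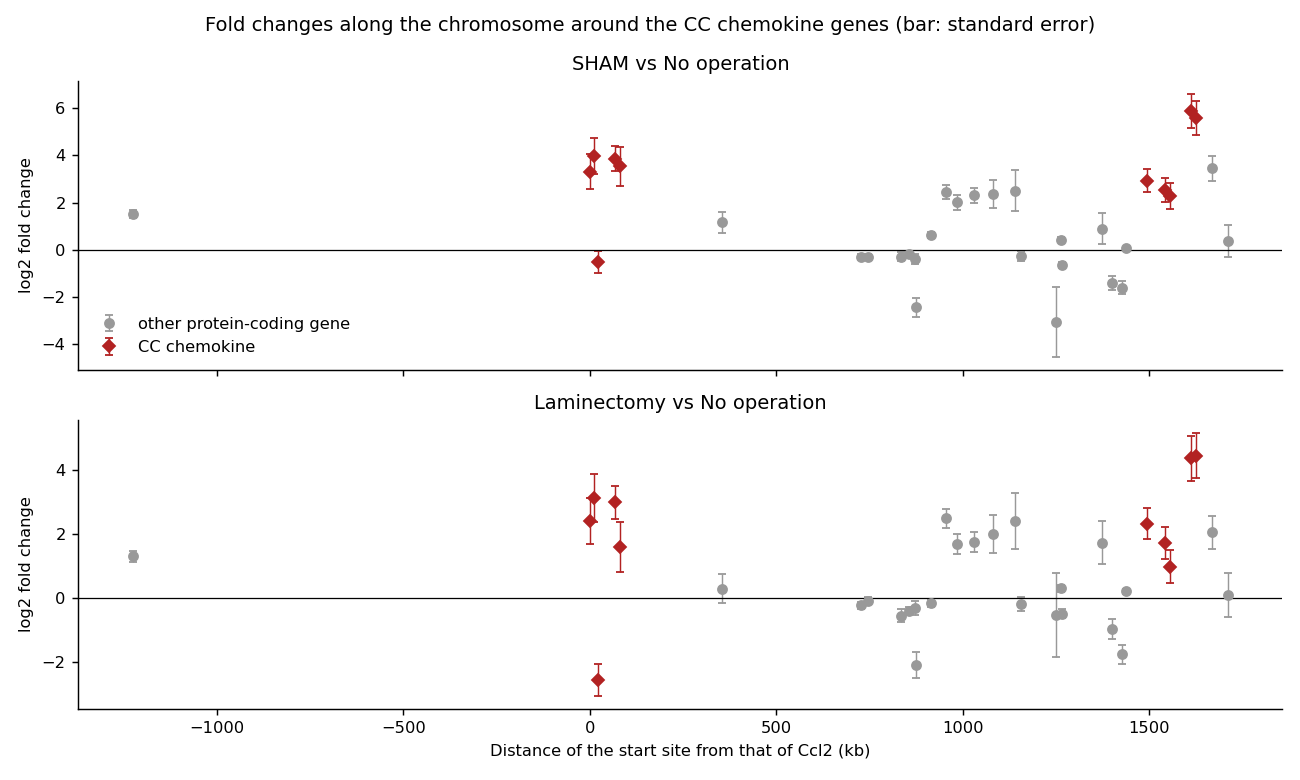
Log2 fold changes with standard errors of the tested protein-coding genes around the CC chemokines, placed by the distance of their start site from that of *Ccl2* in kb, for SHAM (top) and Laminectomy mice (bottom) against No operation. The 2 blocks of members (diamonds) stand above most of the other genes (circles), apart from *Ccl11*, at -0.51 and -2.55.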

How the data were processed

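Bulk mRNA libraries of 12 mice, grouped and numbered by their labels, were analysed. Per the submitters' processing notes and the methods, stranded libraries were aligned with STAR 2.6.1b to GRCm38, counted with featureCounts 2.0.1 and tested with DESeq2 1.30.1. The authors deposited 1 table with an estimated count per gene and mouse for 18996 genes, made by these steps without normalization. In it, 10.2% of the values, in 2933 genes, are not whole numbers, for a reason not given in the sources used here, while all values of the 10 CC chemokines are whole. Values were rounded, which changed none by more than 0.5. No column belonged to another sample. The methods give default settings for featureCounts, under which strand is not used, so reads of genes that overlap on opposite strands cannot be told apart.

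Genes were filtered with filterByExpr (14765 kept), scaled with TMM and fitted over all 12 mice with edgeR 4.0.16 in R 4.3.3 (glmQLFit and glmQLFTest), with Benjamini-Hochberg adjustment over all genes. The biological coefficient of variation was 28.3%. A standard error is the log2 fold change divided by the square root of F, and 95% intervals use the t distribution on the degrees of freedom of this test. Reads were not marked by molecule, so depth covers counting error only. The labels do not say how the mice of a group were housed or operated on, and p-values measure the spread between these mice. The methods give 3 mice per group without naming them, so all 4 were used. Values per kb divide CPM by merged exon length (GENCODE, GRCm38), with the longest coding transcript as an alternative chosen after seeing the data.

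The members and gene lists were chosen with earlier results of these data known. Values are given for all members, for called CC receptors, atypical receptors and other CC ligands, for up to 3 called genes with the largest Laminectomy fold change of each other list, for genes most correlated with a member, and for genes beside the members. *Ccr3*, *Ccr8*, *Il4*, *Il13*, *Adgre1*, *Csf1r*, *Mrc1*, *Folr2*, *Cd163*, *Cpa3* and *Kit* were added after their values were seen. For CC receptors, 1 gene is not reported here. The code was tested on simulated counts. Alternatives were DESeq2 1.42.0, other scalings and filters, fits of 2 groups, a replicate block, unrounded values, a threshold of 1 and each mouse left out.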

Additional observations from a re-analysis of the deposited data

Results flagged for a closer look

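In 7 of 33 sets of 4 mice examined (each CC chemokine and their sum, in each group), the highest mouse stood apart from the other 3 by more than the 95% limit for a gap relative to the whole range. About 1 in 20 sets of independent, normally distributed values pass this limit. The sets here are not independent, since members vary together within groups and the sum contains them, so the count of 7 cannot be judged by that rate. No operation 1 was that mouse in 6 of them. It had 30.2 CPM of *Ccl2*, where the next mouse had 3.33 CPM. It had 22.9 CPM of *Ccl7* (next 2.45), 36.9 CPM of *Ccl8* (next 7.18), 276 CPM of *Ccl6* (next 75.7) and 159 CPM of *Ccl9* (next 53.9). The sum of the 10 chemokines was 567 CPM in this mouse and 167 CPM in the next. The remaining set was *Ccl5* in Laminectomy mice, at 5.19 CPM in Laminectomy 1 and 1.76 CPM in the next mouse.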

How the results depend on the processing

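No member changed direction in any comparison under any alternative. Requiring at least 10 counts in every sample left 6 members to test, of which 5 were called for SHAM and 4 for Laminectomy against No operation. DESeq2 called 1 member, *Ccl11*, between Laminectomy and SHAM mice, and against No operation it called 8 and 7 members, with no p-value for *Ccl7*. The other alternatives called 9 members in SHAM mice. In Laminectomy mice they called 8, or 10 where *Ccl6* and *Ccl8* passed: without a scaling factor, with the replicate number as a block, and without No operation 1, alone or together with SHAM 1 (the last chosen after seeing the data). For *Ccl6* these fits gave 1.31, 1.21, 1.82 and 1.82 on the log2 scale and for *Ccl8* 1.95, 2.42, 3.06 and 3.06. Omitting the scaling factor also shifted the median of all genes to 0.25 in SHAM and 0.33 in Laminectomy mice. The numbers do not pair the mice, since same-numbered mice correlated between -0.23 and 0.35 in their deviations from the group means. The replicate block left 9 calls in SHAM mice and 0 between Laminectomy and SHAM. Leaving out single mice gave 9, 8 to 10, and 0 calls in the 3 comparisons. It gave 5 to 10 members lower in every Laminectomy than in any SHAM mouse, with 10 only without Laminectomy 1, beside 5.45% to 10.8% of all genes, the highest share also without Laminectomy 1. This count, the medians without No operation 1 and the levels and shares without No operation 1 were added after seeing the data. With the longest coding transcript as length, *Ccl2* and *Ccl7* exchanged ranks 5 and 6 in No operation mice, and no other rank changed. Depth limits *Ccl3*, *Ccl4*, *Ccl5* and *Ccl12* in No operation mice, which had 0 to 28 counts each.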
